A study of Homo sapiens with 22 samples.

Results

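The 64 genes described here encode the replication-dependent histones of a human glial tumour line. They were chosen by symbol alone, as the numbered H1, H2AC, H2BC, H3C and H4C genes, and no measured value entered the choice. The pattern found 68 protein-coding symbols in the reference, of which 64 matched 1 of the 58278 Ensembl entries counted in each library; H3C2, H3C3, H2AC18 and H2AC19 were not matched. The 64 genes were 5 linker H1 genes, 15 H2A, 18 H2B, 11 H3 and 15 H4 genes. RefSeq places 52 of them on chromosome 6, 11 on chromosome 1 and 1 (H4C16) on chromosome 12.

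LN308 is an established astrocytoma line, described by its submitters as glial, and every library of the series came from it. Cells were untreated (0 h) or given tunicamycin at 2.5 µg/ml, which blocks N-linked glycosylation, or thapsigargin at 200 nM, which empties the endoplasmic reticulum (ER) of calcium; treated cells were taken after 2 h and 6 h. Total RNA was sequenced (RNA-Seq), as were ribosome footprints (Ribo-Seq), the 27 to 33 nt mRNA fragments protected by ribosomes. Each assay had 3 untreated libraries, 3 libraries per tunicamycin time and 1 library per thapsigargin time. The control is labelled untreated, while the protocol names a solvent-only control, and nothing states that replicates were separate cultures, so p-values measure the spread between these libraries, which may be technical.

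H2A, H2B, H3 and H4 form the protein core around which DNA is wound in the nucleosome, and H1 binds the linker DNA between cores. Their replication-dependent genes stand in clusters, are transcribed in S phase through the coactivator NPAT, and give mRNAs that end in a conserved stem-loop in place of a poly(A) tail. The stem-loop is bound by SLBP, which serves in the processing, translation and decay of these mRNAs, and the mRNAs are known to be degraded when DNA replication stops. ER stress, sensed by PERK, IRE1 and ATF6, is known to lower translation initiation and to slow the cell cycle. In bulk libraries a smaller share of cells in S phase and less histone mRNA per cell cannot be told apart.

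Upstream sequences are printed for the genes on which the results turn: the interval between the divergent H2AC25 and H2BC26 genes and the H2AC21 window, whose genes had more RNA after 6 h than untreated cells with replicates 2 and 3 alone, and the windows of H3C13, H2AC4 and H2BC9, whose genes were lower at 6 h than at 2 h. Each runs 5′ to 3′ on the strand of the gene named and ends at the base before its RefSeq start (build GRCh38.p14). Capitals mark the CCAAT box (CCAAT or ATTGG), the TATA box (TATAAA) and the octamer (ATTTGCAT or ATGCAAAT).
H2BC26, chr1:228457874-228458102, plus strand: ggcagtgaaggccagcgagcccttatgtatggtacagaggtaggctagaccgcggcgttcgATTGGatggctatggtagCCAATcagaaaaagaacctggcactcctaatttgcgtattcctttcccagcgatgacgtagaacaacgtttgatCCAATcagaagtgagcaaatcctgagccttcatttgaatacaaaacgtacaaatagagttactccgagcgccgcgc
H2AC21, chr1:149887966-149888115, minus strand: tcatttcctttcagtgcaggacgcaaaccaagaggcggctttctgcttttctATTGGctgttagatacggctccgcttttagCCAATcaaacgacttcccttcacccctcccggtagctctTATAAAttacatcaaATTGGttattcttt
H3C13, chr1:149813694-149813843, minus strand: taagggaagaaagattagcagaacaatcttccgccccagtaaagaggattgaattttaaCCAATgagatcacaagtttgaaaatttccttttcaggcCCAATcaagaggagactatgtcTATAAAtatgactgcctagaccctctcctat
H2AC4, chr6:26033619-26033768, minus strand: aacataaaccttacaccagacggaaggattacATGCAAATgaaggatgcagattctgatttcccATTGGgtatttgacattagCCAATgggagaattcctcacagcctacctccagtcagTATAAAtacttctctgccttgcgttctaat
H2BC9, chr6:26251464-26251613, plus strand: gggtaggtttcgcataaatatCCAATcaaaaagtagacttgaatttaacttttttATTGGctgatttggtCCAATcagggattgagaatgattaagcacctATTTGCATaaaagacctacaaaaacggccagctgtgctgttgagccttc
The printed H2BC26 interval holds 3 CCAAT boxes and none of the other marked motifs; H2AC21 has 3 CCAAT boxes and 1 TATA box, H3C13 has 2 and 1, H2AC4 has 2 and 1 with 1 octamer, and H2BC9 has 3 CCAAT boxes and 1 octamer.

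RefSeq gave a promoter window for 59 of the 64 genes, and motifs were counted on both strands in the 150 bases before the start. The CCAAT box stood in 49 of the 59 windows and in 24.4% of 27305 windows of all genes. It was in every H1, H2A, H2B and H3 window and in 3 of 13 H4 windows. The TATA box was in 32 of the 59 windows, against 7.05% of all windows. The octamer, which the POU factor OCT1 binds in H2B promoters, was in 14 of 18 H2B, 5 of 14 H2A and 1 of 9 H3 windows and in no H1 or H4 window, against 0.985% of all windows. The ER stress response element (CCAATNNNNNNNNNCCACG) was in no histone window and in 0.0549% of all windows. The C/EBP-ATF element (TGATGNAA) was in 1 histone window, that of H2AC21, 23 bases before its start on the other strand, and in 1.93% of all windows. These matches describe letters only.

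Libraries stood apart in ways the treatment labels do not give. RNA-Seq totals ran from 101371822 to 166586145 counts and Ribo-Seq totals from 4387173 to 29183769, and the 64 genes took 0.557% to 1.26% of RNA-Seq counts and 0.476% to 1.65% of Ribo-Seq counts. In RNA-Seq, replicate 1 of tunicamycin at 2 h (1.26%) and at 6 h (1.12%) lay above the other tunicamycin and untreated libraries (0.557% to 0.691%), and these 2 libraries and both thapsigargin libraries had 0.443% to 0.587% of counts in mitochondrial mRNAs, against at least 1.06% elsewhere. The untreated replicate 1 RNA-Seq library counted 53489 genes above 0, while the other libraries counted 38264 to 40331, and 69.3% of 375 olfactory receptor genes reached 10 counts there, against 2.93% to 5.6%. In Ribo-Seq, untreated replicate 1 had the lowest histone share (0.476%) and tunicamycin replicate 1 the highest (1.57% at 2 h and 1.65% at 6 h). That untreated library also had 4.71% of its counts in 15 genes of non-polyadenylated RNAs, against 0.196% to 0.846% in the other Ribo-Seq libraries, and the lowest mitochondrial share (0.869%). Their part in the differences below was not tested, so the main RNA and footprint results are given with all libraries and with replicates 2 and 3 alone, a choice made after seeing the data. Of 12 glial markers, 9 had at least 10 counts in every RNA-Seq library, as did 3 of 8 blood and 4 of 7 epithelial markers. In RNA-Seq, glial markers summed to 1514 to 4405 CPM (counts scaled to a common library size). Blood markers summed to 0.880 to 3.39 CPM and epithelial markers to 5.75 to 12.3 CPM.

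Untreated LN308 cells transcribed and translated histone genes of every type. Levels are CPM scaled by the trimmed mean of M-values (TMM), given per kilobase of RefSeq span where genes are compared, as mean ± SD of 3 libraries. No level per kilobase is given for 8 genes with a RefSeq span over 1000 bp, among them H2BC12, H2BC18, H2BC21 and H2BC5, so the order covers the shorter genes. Of these, H4C8 (517 ± 287 CPM per kb), the linker gene H1-5 (513 ± 125), H2AC11 (505 ± 123), H1-2 (481 ± 87.1) and H4C3 (441 ± 142) led in RNA, and their spreads overlap, so that their order is not fixed. In footprints H1-5 (787 ± 302), H1-4 (773 ± 292), H3C7 (731 ± 339), H1-2 (701 ± 264) and H4C3 (685 ± 172) led, again with overlapping spreads. H4C8 was the least even: 76.5 CPM in untreated replicate 1 against 288 and 270 in the other 2 RNA-Seq libraries.

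**Figure D1:**
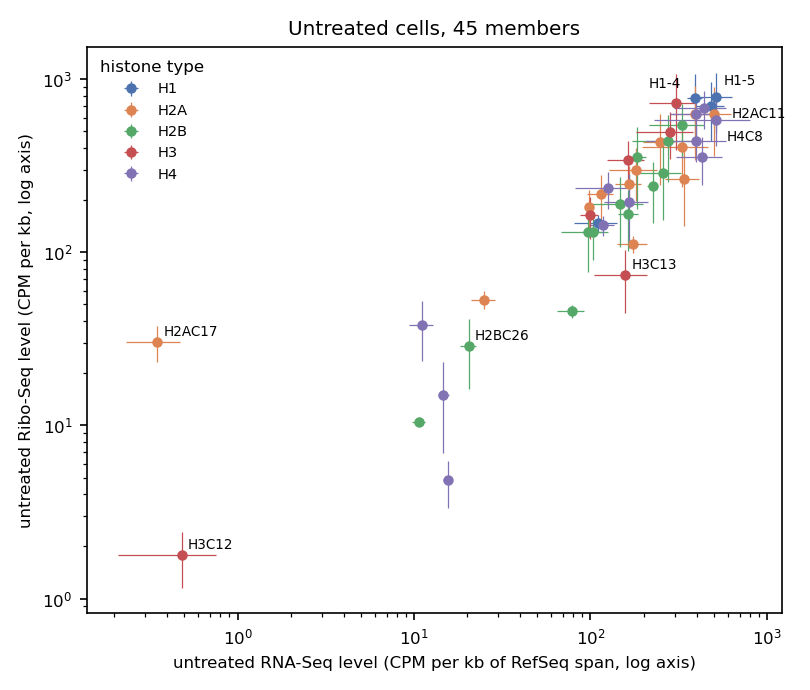
Untreated LN308 cells: RNA-Seq level (horizontal) against Ribo-Seq level (vertical), both in TMM-scaled CPM per kilobase on log axes, for 45 histone genes coloured by type; points are means and bars the SD of 3 libraries. Highly transcribed genes also carried more footprints, and H1-5, H1-2 and H4C3 stand in the upper right corner.

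Footprints per RNA differed between genes, also within a type. The ratio of the Ribo-Seq to the RNA-Seq mean, for the 48 genes that averaged 50 or more counts in both assays, had a median of 1.32 and ran from 0.232 (H2BC18) to 3.41 (H4C16, the gene on chromosome 12). The median was 1.49 for 4 H1 genes, 1.59 for 11 H2A, 1.12 for 17 H2B, 1.71 for 6 H3 and 1.20 for 10 H4 genes. H3C13 had the lowest ratio among the H3 genes, 0.467, and H3C7 the highest, 2.41. H2BC18 has a RefSeq span of 29682 bp that overlaps FCGR1A, so its RNA counts may hold reads of other transcripts. These ratios set 2 library types side by side and carry no test.

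Summed over all 64 genes, RNA-Seq gave 4184, 6803 and 6342 CPM in the untreated libraries, 12858, 6539 and 6757 CPM after 2 h of tunicamycin and 12337, 6791 and 6038 CPM after 6 h. Replicate 1 was the lowest untreated library and the highest at both tunicamycin times, while replicates 2 and 3 lay between 6038 and 6803 CPM at every time. Untreated replicate 1 stood less apart as a share of all counts, without TMM scaling: 0.609%, against 0.690% and 0.626% in untreated replicates 2 and 3. How far below them it lay thus depends on the scaling. The means were 5776 ± 1399, 8718 ± 3587 and 8388 ± 3440 CPM (SD, n = 3), and with replicates 2 and 3 alone 6573, 6648 and 6414 CPM. Footprints gave 4791, 9506 and 8793 CPM in untreated cells, 14866, 9720 and 8545 CPM at 2 h and 15869, 9093 and 8527 CPM at 6 h. Their means of replicates 2 and 3 were 9150, 9132 and 8810 CPM. In both assays the higher summed level under tunicamycin came from replicate 1, while replicates 2 and 3 stayed near their untreated sums.

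With all libraries, the mean RNA-Seq sum of each type was higher at 6 h of tunicamycin, as the total was. In RNA-Seq of untreated cells H1 genes summed to 1154 ± 198 CPM, H2A to 1275 ± 309, H2B to 1782 ± 406, H3 to 504 ± 141 and H4 to 1062 ± 386. At 6 h of tunicamycin the sums were 1754 ± 907, 1730 ± 483, 2704 ± 1363, 694 ± 149 and 1506 ± 540 CPM. With replicates 2 and 3 alone they went from 1242 to 1232 CPM for H1, from 1452 to 1454 for H2A, from 2015 to 1923 for H2B, from 584 to 609 for H3 and from 1279 to 1195 for H4. H2B genes took 29.1% to 34.9% of the histone RNA counts of a library and H3 genes 6.17% to 9.64%, shares that are not corrected for length. H3 genes took 11.2% to 16.0% of the histone footprints.

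**Figure D2:**
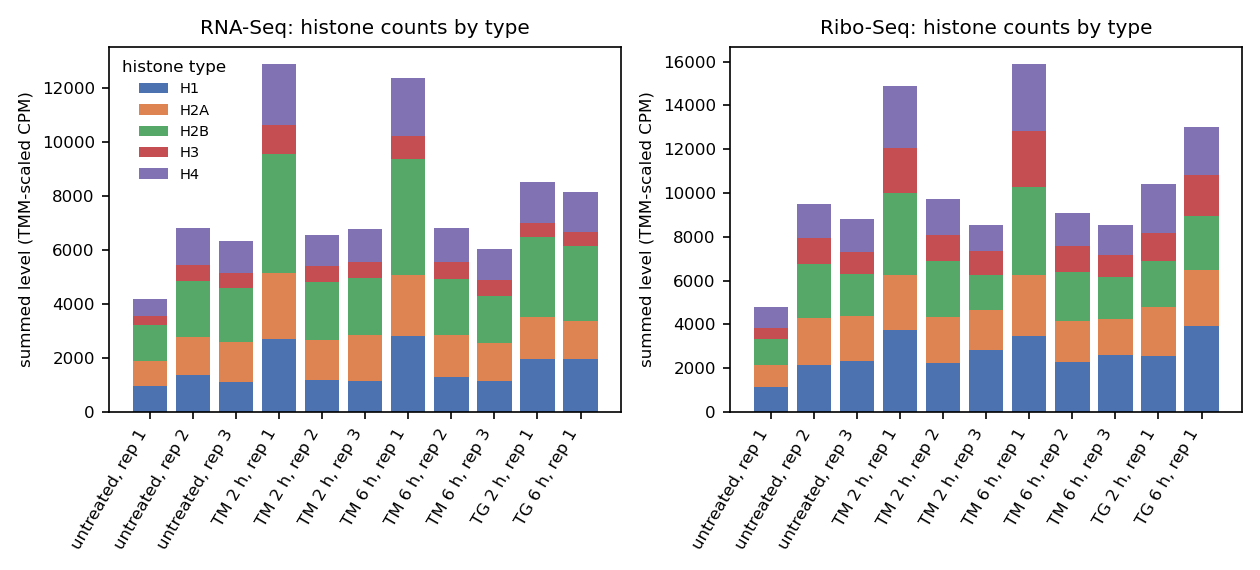
Summed TMM-scaled CPM of the histone genes in each library, stacked by histone type, for RNA-Seq and Ribo-Seq. The replicate 1 bars of both tunicamycin times (12858 and 12337 CPM in RNA-Seq) stand above the replicate 2 and 3 bars, whose heights stay near those of untreated replicates 2 and 3.

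Single genes of each type followed the same division. H1-4, a linker histone, had 301, 338 and 281 CPM of RNA in untreated cells and 872, 380 and 341 CPM at 6 h of tunicamycin, so that the groups did not overlap although replicates 2 and 3 differed little. The linker gene H1-5 had 306, 504 and 417 CPM and then 748, 403 and 361 CPM, and H2BC12 had 139, 315 and 297 CPM and then 547, 346 and 310 CPM. H3C7 footprints, among the highest of the H3 genes, were 172, 492 and 419 CPM in untreated cells, 980, 509 and 552 CPM at 2 h and 1075, 408 and 381 CPM at 6 h. The sign of such log2 fold changes is not stable: among the named histone genes tested, 15 of 34 RNA and 12 of 32 footprint changes at 6 h against untreated cells took another sign under at least 1 alternative.

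**Figure D3:**
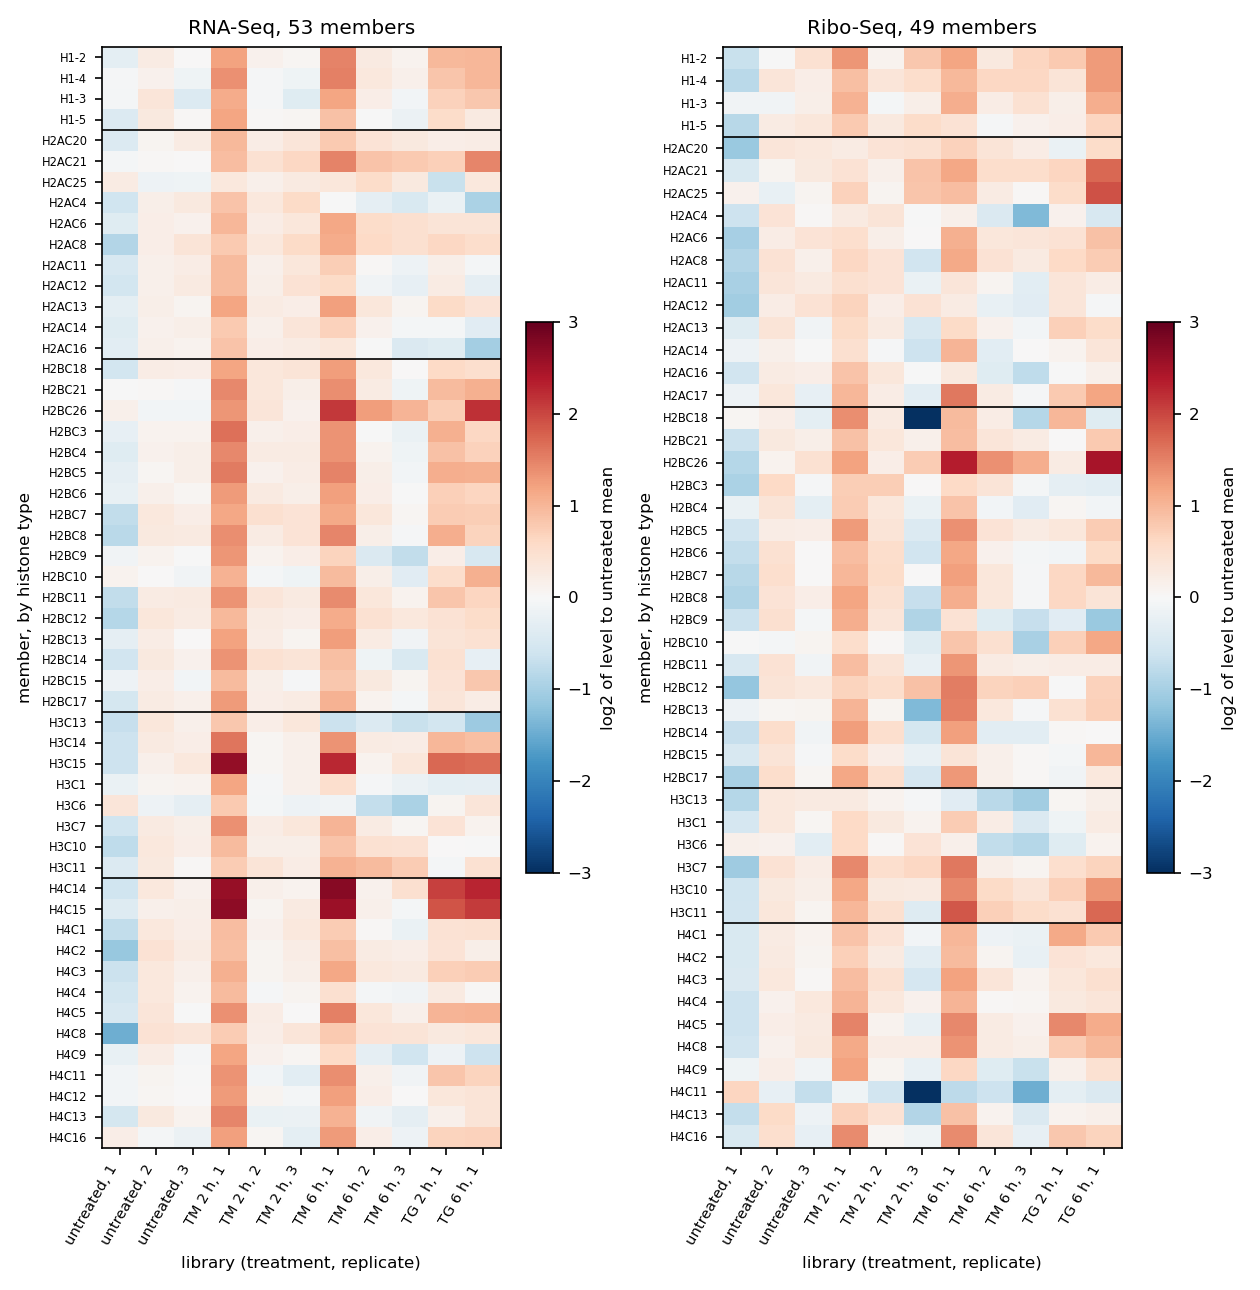
Heat map of the log2 ratio of each gene's level (TMM-scaled CPM + 0.5) to its untreated mean, by library (columns) and gene (rows, ordered by type), for 53 histone genes in RNA-Seq and 49 in Ribo-Seq that averaged 50 or more counts. The columns of tunicamycin replicate 1 are high through nearly the whole set, with medians of 1.19 at 2 h and 1.12 at 6 h in RNA-Seq, and H2BC26 stands out among the H2B rows at 6 h.

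After 2 h of tunicamycin no histone gene changed in RNA-Seq under edgeR's quasi-likelihood test (0 of 58 tested at an adjusted p under 0.05, where 0.00973% of 41130 genes were called). At an unadjusted p under 0.05 there was 1 histone gene, against 8.06% of all genes, and DESeq2 called 0, against 0.165%. The median log2 fold change was 0.57 over the 58 histone genes, with 56 positive and 2 negative, and -0.17 over all genes. Groups of 1 library entered the filter, so genes with enough counts in 1 library were tested: 41130, against 30168 with 10 counts in 3 libraries. Medians and shares over all genes tested, here and below, include genes counted mainly in untreated replicate 1, where 53489 were above 0. Their number was not determined. In 14 of the 58 genes the 3 treated libraries lay above the 3 untreated ones and in 0 below, against 4.62% and 4.96% of genes with enough counts; 9 of the 14 were H2B and 5 were H2A genes. In replicates 2 and 3 alone the median was 0.06 (all genes 0.01), and 1 of 55 histone genes rose, H2AC21, where 4.4% of genes were called.

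After 6 h of tunicamycin no histone gene passed the same test, run without pairing, in RNA-Seq (0 of 58, against 1.5% of all genes). At an unadjusted p under 0.05 there were 5, against 17.4% of all genes, and DESeq2 called 3, H2AC21, H2BC26 and H3C11, all higher, against 6.04% of all genes. The median was 0.57 over the histone genes (52 positive, 6 negative) and -0.27 over all genes; scaled by library size alone it was 0.29, with all genes at -0.58. In 9 of the 58 genes all 6 h libraries lay above all untreated ones and in 0 below, against 14.2% and 11.3% of genes. Same-numbered libraries deviated together, but differently numbered replicates 2 and 3 did so too (correlations 0.161 and 0.186 between untreated and 6 h). By the limit set on same-numbered libraries, the fit with the replicate number as a block was taken as the paired one. In it 3 of 55 rose, H2BC26, H2AC21 and H3C11, and 1 fell, H3C6, against 7.86% of genes called. Without tunicamycin 6 h replicate 1 the histone median was 0.09. Replicates 2 and 3 alone gave a median of 0.01 (all genes -0.02), and 5 of 55 genes rose and 8 fell, against 10.6% and 8.82% of 28828 genes. The 5 were H2BC26, H2AC21, H3C11, H2AC25 and H2AC6, and the 8 were H3C13, H3C6, H2AC4, H2AC12, H2BC9, H2BC14, H4C9 and H4C13. All 13 were chosen for description after their values were seen. The 5 of 55 that rose are near the share of all genes, 10.6%. The 8 of 55 that fell are above the share of all genes, 8.82%, and this difference was not tested.

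H2AC21 and H2BC26 came nearest to the threshold at 6 h, although H4C14 had the highest fold change with all libraries, 1.91, and was high in replicate 1 alone. H2BC26 encodes an H2B protein from chromosome 1 (bases 228458103 to 228458558, plus strand), away from the large clusters. Its RNA was 10.5, 8.78 and 8.72 CPM in untreated cells, 24.1, 12.2 and 10.2 CPM at 2 h and 42.0, 22.7 and 19.5 CPM at 6 h, so that every 6 h library lay above every untreated one. The log2 fold change at 6 h was 1.59 ± 0.38 (SE; edgeR adjusted p = 0.0766), which missed the threshold with all libraries. It passed with the replicate number as a block (1.46 ± 0.17, edgeR adjusted p = 0.00586) and with replicates 2 and 3 alone (1.30 ± 0.14, edgeR adjusted p = 0.000207). Against 2 h it was 0.86 ± 0.37 (edgeR adjusted p = 0.478), and 0.89 ± 0.16 with the block (edgeR adjusted p = 0.0294), where 5.63% of all genes were called.

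H2AC25, which shares the printed 229 bp interval with H2BC26 on the opposite strand, had 15.0, 11.4 and 11.7 CPM in untreated cells and 16.1, 18.8 and 15.7 CPM at 6 h. Its groups did not overlap, and the log2 fold change was 0.41 ± 0.21 (edgeR adjusted p = 0.325), or 0.60 ± 0.12 with replicates 2 and 3 alone (edgeR adjusted p = 0.00847). H2AC21, an H2A gene of the chromosome 1 cluster (bases 149887469 to 149887965), had 47.3, 50.3 and 49.5 CPM in untreated cells, 93.6, 67.5 and 75.8 CPM at 2 h and 138, 88.7 and 84.5 CPM at 6 h. Its untreated libraries were tight, and all treated ones lay above them at both times. At 6 h the change was 1.08 ± 0.24 (edgeR adjusted p = 0.0613), with the block 1.00 ± 0.14 (edgeR adjusted p = 0.0114), and with replicates 2 and 3 alone 0.82 ± 0.09 (edgeR adjusted p = 0.000366).

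H3C11, an H3 gene of the third chromosome 6 block (bases 27871845 to 27872346), had 61.7, 100 and 84.0 CPM in untreated cells, 139, 108 and 95.1 CPM at 2 h and 170, 158 and 140 CPM at 6 h. It was the single histone gene whose 6 h libraries all lay above its 2 h libraries, as 12.6% of genes did. Its 6 h change against untreated cells was 0.93 ± 0.25 (edgeR adjusted p = 0.107), and 0.89 ± 0.18 with the block (edgeR adjusted p = 0.0343). With replicates 2 and 3 alone it was 0.72 ± 0.12 (edgeR adjusted p = 0.00301). H2AC6 had 99.1, 146 and 139 CPM in untreated cells and 289, 187 and 179 CPM at 6 h.

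Other histone genes had less RNA at 6 h than at 2 h. H3C13, an H3 gene of the chromosome 1 cluster (bases 149813225 to 149813693), had 45.9, 93.5 and 82.3 CPM in untreated cells, 129, 84.5 and 93.2 CPM at 2 h and 47.0, 55.3 and 46.7 CPM at 6 h. All 6 h libraries lay below all 2 h libraries, as in 11.2% of genes, while untreated replicate 1 lay below the 6 h group. Against 2 h the log2 fold change was -1.04 ± 0.29 (edgeR adjusted p = 0.167), and with replicates 2 and 3 alone -0.79 ± 0.11 (edgeR adjusted p = 0.00108). Against untreated cells it was -0.57 ± 0.29 (edgeR adjusted p = 0.318), and -0.76 ± 0.11 with replicates 2 and 3 alone (edgeR adjusted p = 0.00159).

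H2AC4, an H2A gene at the start of the chromosome 6 cluster (bases 26033092 to 26033618), followed H3C13: 63.0, 108 and 117 CPM in untreated cells, 173, 119 and 143 CPM at 2 h and 94.5, 80.0 and 69.6 CPM at 6 h. Its 6 h libraries also lay below all 2 h libraries (log2 fold change -0.83 ± 0.27, edgeR adjusted p = 0.266; -0.80 ± 0.11 with replicates 2 and 3 alone, edgeR adjusted p = 0.00109). H2BC9 had 97.5, 112 and 103 CPM, then 260, 113 and 120 CPM, then 167, 77.2 and 62.1 CPM, so that replicates 2 and 3 were lowest at 6 h and replicate 1 was not. Its change against 2 h was -0.69 ± 0.41 (edgeR adjusted p = 0.72), and with replicates 2 and 3 alone -0.74 ± 0.12 (edgeR adjusted p = 0.00174). H3C6 was low throughout, with 9.77, 6.66 and 6.11 CPM in untreated cells, 13.3, 7.24 and 6.69 CPM at 2 h and 6.99, 4.38 and 3.66 CPM at 6 h. It fell against untreated cells with the block (-0.65 ± 0.13, edgeR adjusted p = 0.03) or with replicates 2 and 3 alone (-0.64 ± 0.15, edgeR adjusted p = 0.0174), and its change with all libraries was -0.58 ± 0.36 (edgeR adjusted p = 0.371).

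Between 2 h and 6 h of tunicamycin, which share no untreated library, no histone gene passed the edgeR test in RNA-Seq (0 of 58, against 0.742% of all genes; 4 at an unadjusted p under 0.05, against 9.75%). DESeq2 called 2, both lower, H3C13 and H2AC4, against 3.85% of all genes. The paired fit, with the replicate number as a block, called 2, against 5.63% of all genes. The median was -0.08 over histone genes, with 22 positive and 36 negative, and 0.00 over all genes. In replicates 2 and 3 alone 3 of 55 rose, H2BC26, H3C11 and H3C10, and 8 fell, against 12.6% and 12.5% of all genes.

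Shares within the histone counts set aside a change common to all 64 genes. H2BC26 took 0.250%, 0.129% and 0.138% of the histone RNA counts in untreated cells and 0.341%, 0.335% and 0.323% at 6 h, where the 3 replicates came close together. H3C13 took 1.10%, 1.37% and 1.30% in untreated cells, 1.01%, 1.29% and 1.38% at 2 h and 0.381%, 0.814% and 0.773% at 6 h. H2AC4 took 1.51%, 1.59% and 1.84% and, at 6 h, 0.766%, 1.18% and 1.15%. At 6 h 1 gene, H2BC26, took a larger share than in any untreated library and 12 took a smaller share than in any, H1-5, H2AC4, H2AC11, H2AC12, H2AC16, H2BC9, H2BC14, H3C1, H3C6, H3C13, H4C4 and H4C9. The same ratio to the histone total lay above in 2.57% and below in 22.4% of all genes. For genes outside the set this ratio moves with the histone total, which was high in tunicamycin replicate 1. These percentages are therefore not a like background for shares within the set.

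**Figure D4:**
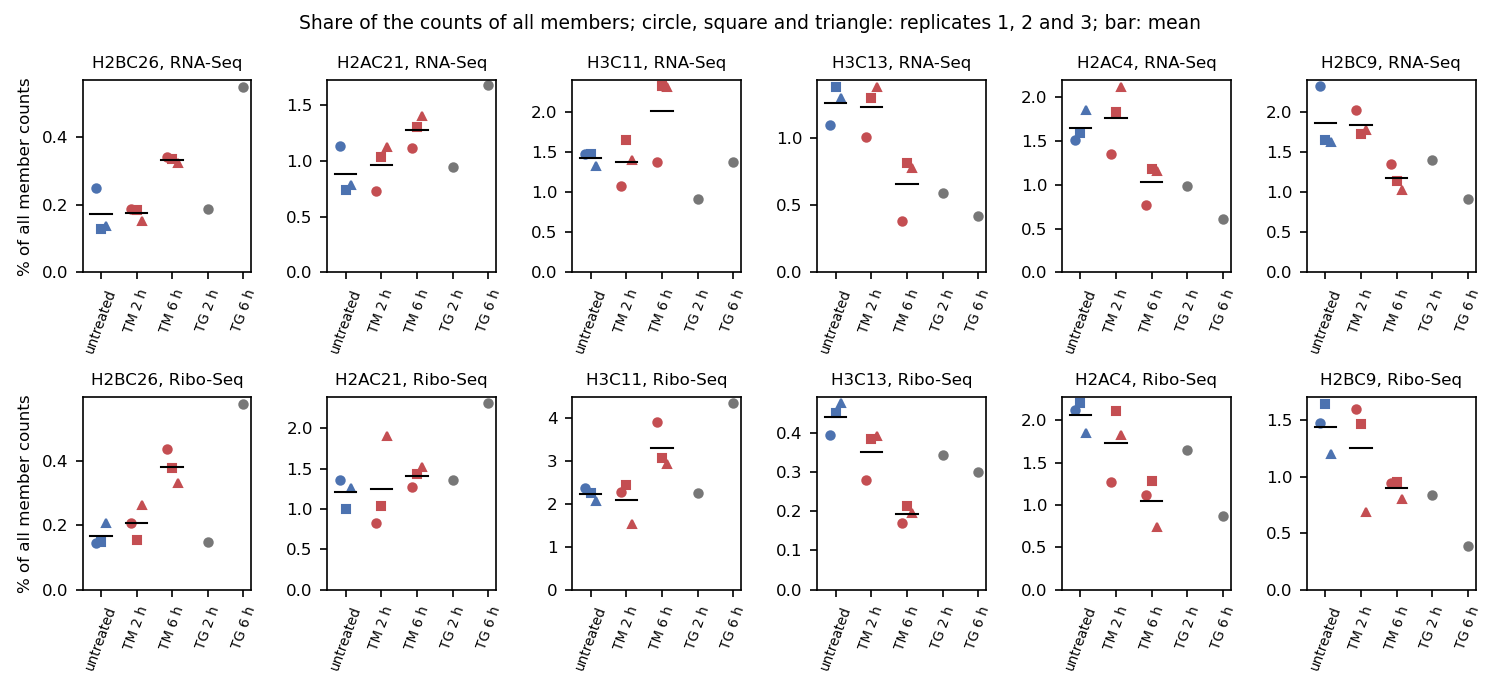
Share of all histone counts (percent, vertical) taken by H2BC26, H2AC21, H3C11, H3C13, H2AC4 and H2BC9 in each group, for RNA-Seq and Ribo-Seq; points are libraries (circle, square and triangle for replicates 1, 2 and 3) and bars are group means. H2BC26 is higher and H3C13 and H2AC4 are lower at 6 h than in untreated cells in both assays.

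Ribosome footprints were tested in 53 histone genes, and edgeR called 0 after 2 h, where 0% of all 19411 genes were called (0 histone genes at an unadjusted p under 0.05, against 3.19%; DESeq2 called 0, against 0.0155%). After 6 h edgeR called 0, against 0.84% of all genes (5 at an unadjusted p under 0.05, against 12.1%), and DESeq2 called 1, H2BC26, higher, against 3.53% of all genes. Between 2 h and 6 h edgeR called 0, against 0.752% of all genes (2 at an unadjusted p under 0.05, against 10%; DESeq2 called 0, against 2.71%). In 9 of 52 histone genes all 6 h libraries lay above all untreated ones and in 0 below, against 10.5% and 12.8% of genes. The histone medians were 0.45, 0.51 and 0.05 for these comparisons and -0.02, -0.07 and -0.04 over all genes. Without the replicate 1 libraries the histone medians were -0.06, -0.07 and -0.00.

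The genes singled out in RNA had the same direction in footprints. H2BC26 footprints were 6.97, 14 and 18.2 CPM in untreated cells, 30.7, 15.1 and 22.4 CPM at 2 h and 69.4, 34.5 and 28.2 CPM at 6 h, a 6 h log2 fold change of 1.76 ± 0.44 (edgeR adjusted p = 0.104). All 6 h libraries lay above the untreated ones. H3C11 footprints were 114, 215 and 181 CPM and, at 6 h, 620, 280 and 250 CPM (1.17 ± 0.43, edgeR adjusted p = 0.296), and H2AC21 footprints were 65.3, 94.9 and 111 CPM and then 203, 130 and 130 CPM (0.77 ± 0.30, edgeR adjusted p = 0.322). Neither group pair overlapped. These changes were smaller with replicates 2 and 3 alone and did not pass: 1.01 ± 0.30 for H2BC26 (edgeR adjusted p = 0.138), 0.47 ± 0.27 for H3C11 (edgeR adjusted p = 0.463) and 0.39 ± 0.25 for H2AC21 (edgeR adjusted p = 0.523). H3C13 footprints were 18.9, 42.9 and 41.8 CPM in untreated cells, 41.5, 37.3 and 33.5 CPM at 2 h and 27.0, 19.5 and 16.6 CPM at 6 h. They fell with replicates 2 and 3 alone, by 1.18 ± 0.21 on the log2 scale against untreated cells (edgeR adjusted p = 0.0273) and by 0.95 ± 0.21 against 2 h (edgeR adjusted p = 0.0483), where 2.47% and 4.18% of all genes were called. With all libraries the change against untreated cells was -0.71 ± 0.34 (edgeR adjusted p = 0.428). H2AC4 footprints went from 102, 209 and 163 CPM to 177, 116 and 63.2 CPM at 6 h.

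Across the 48 genes with enough counts in both assays, RNA and footprint log2 fold changes at 6 h against untreated cells had Pearson's r = 0.77 and Spearman's rho = 0.74, and 44 had the same sign. Over replicates 2 and 3 alone these were 0.88, 0.87 and 39. At 2 h they were 0.22 and 0.24, and 0.32 and 0.10 with replicates 2 and 3 alone. These describe genes of the same sets of libraries and are not tests, since genes are not independent replicates.

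**Figure D5:**
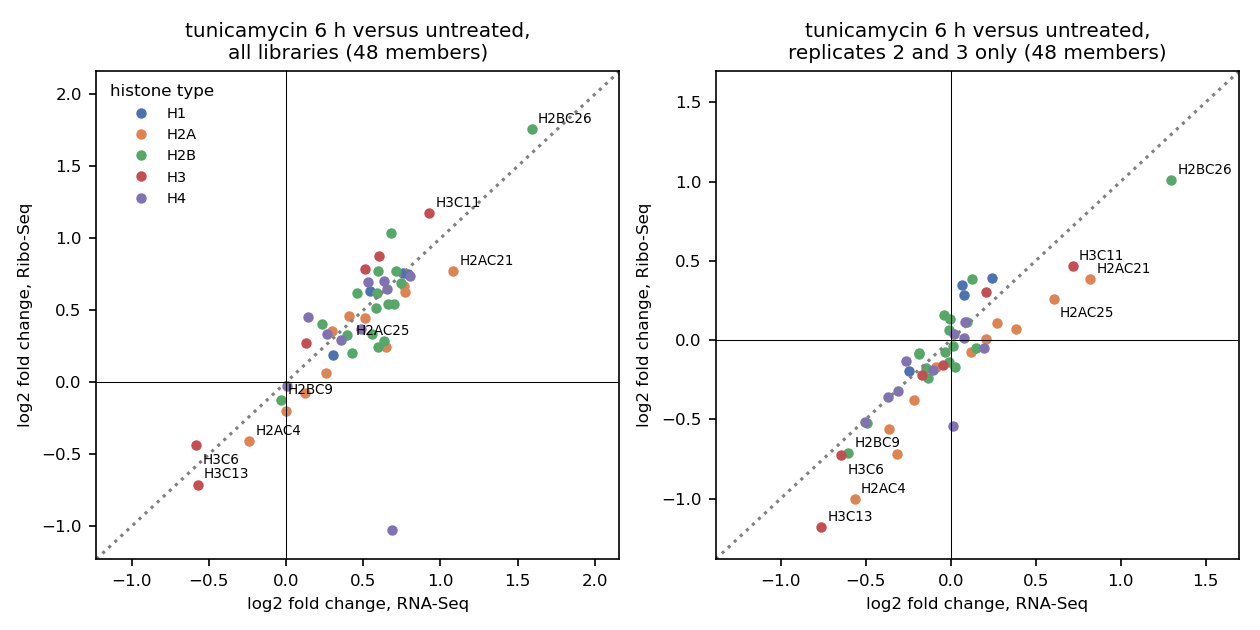
Log2 fold change at 6 h of tunicamycin against untreated cells in RNA-Seq (horizontal) and Ribo-Seq (vertical) for 48 histone genes, with all libraries and with replicates 2 and 3 alone; the dotted line marks equal change. Most points lie right of and above 0 with all libraries and around 0 with replicates 2 and 3 alone, with H2BC26 at the upper right and H3C13 at the lower left.

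Translational efficiency, tested as the footprint change relative to the RNA change of the same gene, did not pass the interaction test for any of 60 histone genes at any time (edgeR called 0 at 2 h, at 6 h and between them, 0 at an unadjusted p under 0.05 in each, and DESeq2 called 0). Over all genes 0% were called in each of these comparisons. The histone medians were -0.05 at 2 h, 0.09 at 6 h and 0.11 between them, and over all genes 0.18, 0.16 and 0.00. Replicates 2 and 3 alone gave 0 calls and histone medians of -0.11, -0.10 and -0.01. The efficiency change at 6 h was 0.34 ± 0.59 for H2BC26, 0.35 ± 0.48 for H3C11, -0.17 ± 0.36 for H2AC21 and -0.05 ± 0.40 for H3C13 (log2 ± SE; edgeR adjusted p = 1 for each). In replicates 2 and 3 alone it was negative in all 4 of these genes, from -0.47 (H2AC21) to -0.28 (H3C11), and did not pass. The ratio of mean footprints to mean RNA had a median of 1.35 at 6 h against 1.32 in untreated cells. These SEs leave room for changes of efficiency that the libraries could not show.

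Thapsigargin had 1 library per assay and time, so its values have no replicate check. The histone sum was 8520 CPM of RNA at 2 h and 8151 CPM at 6 h, above the 3 untreated libraries, and 10421 and 13022 CPM of footprints. H2BC26 was again high at 6 h, with 44.7 CPM of RNA and 75.1 CPM of footprints, beyond every untreated library (log2 fold changes of 2.26 and 2.53). H2AC21 had 137 CPM of RNA and 301 CPM of footprints (1.48 and 1.74), and H3C13 had 34.2 CPM of RNA, below every untreated library (-1.11), with 39.0 CPM of footprints, within their range. H2AC4 RNA was 49.2 CPM, also below every untreated library. H3C11 differed between the assays: its RNA was 112 CPM and its footprints 566 CPM, against at most 100 and 215 CPM in untreated cells. H2AC25 had 16.0 CPM of RNA and 103 CPM of footprints, against 23.4 to 29.5 CPM of untreated footprints.

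At least 2-fold higher RNA at 6 h of thapsigargin was seen in 13 of 58 histone genes and at least 2-fold lower RNA in 3, against 9.64% and 38.7% of all genes. At 2 h these were 8 and 0, against 6.7% and 35.8%. The 6 h counts depended on the processing: 6 and 5 with library size alone, against 5.39% and 46.5% of all genes, and 8 and 4 with 10 counts in 3 libraries, against 10.9% and 24.2%. In footprints they were 13 and 2 of 53 at 6 h, against 12.5% and 30.1%, and 5 and 1 at 2 h, against 9.12% and 23.2%. The ratio of footprints to RNA at 6 h of thapsigargin had a median of 2.96 over 6 H3 genes, 1.86 over 11 H2A genes and 1.02 over 17 H2B genes, against 1.71, 1.59 and 1.12 in untreated cells. These libraries share the untreated controls and, in RNA-Seq, the low mitochondrial share with tunicamycin replicate 1.

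The genes stand in several genomic blocks. With all libraries the median RNA change at 6 h was 0.54 over 26 genes of the first chromosome 6 block, 0.26 over 5 of the second, 0.46 over 15 of the third, 0.86 over 9 of the first chromosome 1 block and 1.00 over the pair H2AC25 and H2BC26. In replicates 2 and 3 alone the medians in this order were -0.04 (23 genes), -0.22, 0.02, 0.03 and 0.95. Of 13 head-to-head pairs, whose starts lie under 1000 bp apart, 10 had both genes tested with all libraries, and 9 of these had the same sign in both genes. With replicates 2 and 3 alone 9 had both tested and 5 had the same sign. Most histone genes were positive at 6 h with all libraries, so a shared sign there would be common in any pair of them. H2BC7 is counted both with H3C4 and with H2AC7. H2BC4 and H2AC6 were at 0.59 and 0.77 with all libraries and at -0.14 and 0.38 with replicates 2 and 3 alone.

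Several genes carried little or uncertain signal. H2AC15 and H3C4 had no count in any library, and 5 genes in RNA-Seq and 10 in Ribo-Seq stayed under 10 counts in every library. H4C14 RNA was 0.815, 2.00 and 1.67 CPM in untreated cells, 11.7, 1.70 and 1.66 CPM at 2 h, 12.8, 1.67 and 2.28 CPM at 6 h, and 7.75 and 9.19 CPM under thapsigargin, with at most 9 footprint counts in any library. H3C15 had 0.457, 1.12 and 1.32 CPM in untreated cells, 8.58, 1.03 and 1.13 CPM at 2 h and 6.48, 1.08 and 1.35 CPM at 6 h, with at most 6 footprint counts. Both were high in the libraries with a low mitochondrial share and nowhere else. H2AC17 had 17 to 53 counts of RNA per library but 49 to 412 footprints. Many replication-dependent histone genes are near-identical copies, and the treatment of reads that map to several of them is not given in the sources used here, so levels of single copies are uncertain. The RNA selection of the RNA-Seq libraries is not given either; mRNAs without a poly(A) tail depend on it.

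The factors that act on histone genes and mRNAs gave no call with all libraries at 6 h. Of 22 genes of histone transcription, 3′ end processing and decay, 12 tested replication-independent variants and 23 histone chaperones, edgeR called 0 at 6 h against untreated cells in RNA-Seq (1.5% of all genes were called), with medians of 0.10, 0.44 and 0.23. In replicates 2 and 3 alone, where 10.6% of all genes were called higher and 8.82% lower, 2 rose and 6 fell of the 22, 1 rose and 2 fell of the 12, and 1 rose and 4 fell of the 23. SLBP RNA was 33.2, 66.1 and 56.0 CPM in untreated cells, 114, 51.5 and 50.7 CPM at 2 h and 62.1, 41.8 and 36.1 CPM at 6 h. Its change at 6 h was -0.15 ± 0.38 (edgeR adjusted p = 0.841), and -0.63 ± 0.11 with replicates 2 and 3 alone (edgeR adjusted p = 0.00439). NPAT was at 0.42 ± 0.26 (edgeR adjusted p = 0.374), its partner CASP8AP2 at 0.02 ± 0.36 (edgeR adjusted p = 0.976) with a sign that differed between scalings, and H3-3B, which encodes the replication-independent H3.3, at 0.52 ± 0.34 (edgeR adjusted p = 0.401).

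Of 30 genes of S phase itself, 1 was called with all libraries at 6 h. This gene, CDC6, which loads the replicative helicase, rose: its RNA was 31.8, 82.4 and 68.0 CPM in untreated cells and 594, 277 and 274 CPM at 6 h (log2 fold change 2.65 ± 0.45, edgeR adjusted p = 0.0192), and its footprints rose by 2.40 ± 0.37 (edgeR adjusted p = 0.0106). The cyclin E genes, whose kinase acts on NPAT, did not pass with all libraries and were lower at 6 h in replicates 2 and 3 but not in replicate 1. CCNE1 RNA was 7.30, 12.4 and 11.1 CPM in untreated cells and 8.47, 4.59 and 3.39 CPM at 6 h (-0.90 ± 0.42, edgeR adjusted p = 0.296; -1.53 ± 0.16 with replicates 2 and 3 alone, edgeR adjusted p = 0.000225). CCNE2 RNA was 11.5, 22.9 and 26.2 CPM and then 23.4, 10.8 and 8.67 CPM (-0.50 ± 0.48, edgeR adjusted p = 0.56; -1.31 ± 0.13 with replicates 2 and 3 alone, edgeR adjusted p = 0.000167). In replicates 2 and 3 alone 17 of the 30 S-phase genes fell and 1 rose at 6 h, against 8.82% and 10.6% of all genes, beside 8 and 5 of 55 histone genes.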

How the data were processed

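Total RNA (RNA-Seq) and ribosome footprints (Ribo-Seq; cycloheximide, 80S monosomes, per the labels' protocols) were measured in 11 LN308 libraries each. The authors deposited raw counts per Ensembl entry, for 58278 entries in each library. STAR 2.5.4b, HTSeq, DESeq2 and build GRCh38 are named per the submitters' processing notes. What each did, which annotation and features were counted, whether strand was used and how reads with several matches were handled: not given in the sources used here. A p-value for overlapping or copied histone genes therefore rests on counts that may be shared.

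Symbols came from the RefSeq-based tables for 57437 entries, and spans and promoters from RefSeq (GRCh38.p14). Counts were tested with edgeR 4.0.16 (R 4.3.3, limma 3.58.1): filterByExpr on the groups (minimum count 10), TMM scaling, robust glmQLFit over all groups of an assay, glmQLFTest and Benjamini-Hochberg adjustment over 41130 RNA-Seq, 19411 Ribo-Seq or 39928 joint genes. Called means an adjusted p under 0.05. Translational efficiency was the interaction in 1 fit of 22 libraries. The biological coefficient of variation was 0.506, 0.546 and 0.551. Thapsigargin groups of 1 library entered the fits, but their p-values, which assume the spread of the other groups, are not reported. The scripts were tested on simulated data.

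Alternatives were other scalings, no filter on low counts, DESeq2 1.42.0, only the groups compared, a replicate block and leaving out each library. A filter of 10 counts in 3 libraries, replicates 2 and 3 alone, and the block without untreated replicate 1 were added after seeing the data. Same-numbered libraries deviated together (correlations 0.168 to 0.384 between untreated and 6 h RNA-Seq, 0.570 to 0.769 between 2 h and 6 h, 0.180 to 0.521 in Ribo-Seq), over the limit of 0.1. By that limit these comparisons were paired. In RNA-Seq, differently numbered replicates 2 and 3 also passed it, at 0.161 and 0.186 between untreated and 6 h. Between 2 h and 6 h they had 0.450 and 0.445. The limit thus cannot tell pairing by number from replicate 1 standing apart. The main fits over all libraries did not pair them, and the replicate block is the paired fit. Untreated and 2 h RNA-Seq replicate 2 had 0.0815, so these groups were not taken as paired.

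Named genes are the 3 highest of each histone type per assay, members called in any comparison, the highest and lowest fold change per comparison among genes averaging 50 or more counts, and SLBP, NPAT, CASP8AP2, H3-3B, CCNE1, CCNE2 and called genes of the related lists. The genes and lists were chosen with earlier results of these data known, and genes named for replicates 2 and 3 alone were chosen after their values were seen.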

Additional observations from a re-analysis of the deposited data

Results flagged for a closer look

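H3C13 and H2AC4 had 2 h and 6 h tunicamycin values on opposite sides of the untreated mean in RNA-Seq, with every library of a time on its side. For H3C13 this rested on its lowest untreated library, which pulled the untreated mean down. The other untreated libraries overlapped the 2 h libraries of H3C13, so a rise of this gene at 2 h was not shown. H3C13 had a mean of 73.9 CPM in untreated cells, 102 CPM at 2 h and 49.6 CPM at 6 h, so that the 6 h mean lay below the 2 h mean by a signed difference of -52.7 CPM. H2AC4 had means of 96.0, 145 and 81.4 CPM, a difference of -63.8 CPM. Both times were set against the same untreated libraries, and that opposition was not tested. The direct comparison of 6 h with 2 h did not pass the edgeR test with all libraries for either gene.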

How the results depend on the processing

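With all libraries, edgeR called 0 histone genes in each tunicamycin comparison, and this held under both other scalings, with only the groups compared and without each library in turn. In RNA-Seq at 6 h against untreated cells the count was 2 with no filter (1.26% of all genes called), 3 with DESeq2, 4 with the replicate block, 13 with replicates 2 and 3 only, 1 with 10 counts in 3 libraries (2.56%) and 15 of 56 with the block without untreated replicate 1 (25.2%). At 6 h against 2 h it was 2 with DESeq2, 2 with the block, 11 with replicates 2 and 3 only and 17 of 56 with the block without untreated replicate 1 (34.7%). At 2 h it was 1 with replicates 2 and 3 only and 1 with that block (2.61%). Footprints at 6 h gave 3 with no filter (2.02%), 1 with DESeq2, 1 with replicates 2 and 3 only and 2 with the block without untreated replicate 1 (4.08%), and against 2 h 1 and 4 (10.1%) with the last pair. The replicate block changed no other call among the histone genes. The cause was not tested.

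The histone median moved to 0.0643 (replicates 2 and 3 only) and 0.0678 (block without untreated replicate 1) at 2 h and to 0.0148 and 0.0028 at 6 h in RNA-Seq. In Ribo-Seq it moved to -0.0580 and -0.0933 at 2 h and to -0.0731 and -0.0636 at 6 h. Leaving out each library gave medians of 0.2234 to 0.7454 (RNA-Seq, 2 h), 0.0884 to 0.7659 (6 h), -0.5102 to 0.3738 (6 h against 2 h), and in Ribo-Seq 0.114 to 0.6612, 0.0996 to 0.7148 and -0.3496 to 0.3144; the lowest values against untreated cells came without the treated replicate 1. The sign of CASP8AP2 (0.024) turned with relative log expression scaling (-0.0063), library size alone (-0.2918), DESeq2 (-0.0063), only the groups compared (-0.0428), the block (-0.1181), replicates 2 and 3 only (-0.3538), 10 counts in 3 libraries (-0.0767) and the block without untreated replicate 1 (-0.3563), and spanned -0.3751 to 0.1905 when single libraries were left out; SLBP spanned -0.396 to 0.0652.

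Over all genes, calls at 6 h in RNA-Seq went from 617 to 2306 with the block, 2485 with DESeq2 and 5590 with replicates 2 and 3 only, and against 2 h from 305 to 1651, 1583 and 7230. In Ribo-Seq they went from 163 to 386, 686 and 378, and from 146 to 364, 526 and 639. Low footprint counts limit what the less abundant histone genes can show.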

Other observations

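The part of the histone footprints taken by linker histones rose from untreated cells to 2 h of tunicamycin in each same-numbered replicate, least in replicate 2. Against untreated cells the 6 h part was lower in replicate 1 and higher in replicates 2 and 3. These moves were not tested. Between 2 h and 6 h the H1 part fell in replicates 1 and 3 and rose in replicate 2. H1 genes took 23.5%, 22.5% and 26.4% of histone footprint counts in untreated cells, 25.2%, 22.8% and 33.1% at 2 h of tunicamycin and 21.8%, 25.3% and 30.3% at 6 h, with 24.4% and 30.3% at 2 h and 6 h of thapsigargin, so that the groups overlapped. H1-4 footprints were 348, 783 and 693 CPM in untreated cells and 1486 CPM in the 6 h thapsigargin library. H4C12 footprints were 2.38, 1.26 and 1.94 CPM in untreated cells and 10.4 and 10.2 CPM under thapsigargin, on 89 and 68 counts, while its RNA was 7.75 and 7.94 CPM against 5.62, 6.28 and 6.09 CPM. Its share of histone footprints was 0.0497%, 0.0133% and 0.0221% in untreated cells and 0.0995% and 0.0784% under thapsigargin. After tunicamycin the share was 0.0630%, 0.0417% and 0.00564% at 2 h and 0.0395%, 0.0228% and 0.0105% at 6 h. Replicate 1 was thus the highest in each of these groups of 3. H3C8, with at most 42 RNA counts in any library, had more footprint than RNA CPM in each of the groups.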
